A study of Mus musculus with 6 samples.

Results

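A group of 10 noncoding RNAs was followed in the RNA of brain cells carrying CD11b, the surface protein by which microglia and other myeloid cells were captured. They are Malat1, Neat1, Rn7sk, Rmrp, Rpph1, Kcnq1ot1, Meg3, Gas5, Snhg1 and Terc. Chosen as RNAs abundant in total RNA, they differed widely in these libraries, from 30721 or more counts of Malat1 to 8 counts of Terc in 1 library and 0 in the others. They were chosen by symbol, and GENCODE M21 placed the 10 symbols on 11 of the 55401 rows of the count table, because Rmrp has 2 rows. The samples were 6 libraries from untreated mice of 6 weeks of age, 3 labelled MRL/lpr and 3 labelled MRL/mpj. Both strains share the MRL background, which is prone to lupus, and MRL/lpr mice also carry the lpr mutation of Fas. The labels describe total RNA from which ribosomal RNA was removed with a Ribo-Zero kit before stranded libraries were made, whereas the methods of the study speak of purified mRNA. The study counts its replicates as mice, but the labels do not say whether each library came from a separate mouse or from pooled cells, so p-values measure the spread between these libraries.

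Most of these RNAs work in the nucleus and are never translated. Malat1 lies in nuclear speckles, and Neat1 is the scaffold of paraspeckles, bodies that hold RNA-binding proteins. Rn7sk, Rmrp and Rpph1 are short RNAs made by RNA polymerase III: 7SK RNA holds the elongation factor P-TEFb inactive, and the others are the RNA parts of the enzymes RNase MRP and RNase P. Terc carries the template of telomerase. Kcnq1ot1 and Meg3 are imprinted long RNAs, and Gas5 and Snhg1 carry small nucleolar RNAs (snoRNAs) in their introns while their spliced RNAs are degraded by nonsense-mediated decay.

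Several of these RNAs end or begin in sequences that set them apart from mRNA, and 4 stretches are shown here. Malat1 and the long form of Neat1 have no ordinary poly(A) tail. Each ends in a U-rich element and an A-rich tract that fold onto each other, and RNase P cuts the longer primary RNA just after the tract. The capitals mark TTTGCTTTT and its reverse complement AAAAGCAAA, first in bases 6597 to 6690 of the annotated Malat1 transcript (GRCm38 chr19:5795983-5796076, minus strand) and then in the last 100 bases of the long Neat1 transcript (chr19:5824708-5824807, minus strand), both read from the GENCODE M21 transcripts.
Malat1: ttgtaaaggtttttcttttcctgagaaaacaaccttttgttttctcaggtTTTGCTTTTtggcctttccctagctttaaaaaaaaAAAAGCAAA
Neat1: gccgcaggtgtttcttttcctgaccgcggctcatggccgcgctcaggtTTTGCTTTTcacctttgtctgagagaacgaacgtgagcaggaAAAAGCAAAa

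The marked elements span 44 bases in Malat1 and 51 bases in Neat1. The annotated Malat1 transcript runs on for 293 bases after the second element, and that of Neat1 stops 1 base after it. Of 8956 long intergenic noncoding transcripts of at least 200 bases, 3 held the first element followed by the second within 100 bases of the same strand (0.0335%), namely those of Malat1, Neat1 and Gm42524. The next stretches show what defines a pair of the short RNAs. The capitals mark each GATC in the first 100 bases of Rn7sk (chr9:78175534-78175633, minus strand). GATC is a motif at which 7SK RNA holds the Hexim proteins, but not each copy marked need belong to that site. In the first 60 bases of Terc (chr3:96414800-96414859, minus strand) the capitals mark CTAACCC, which lies in the template that telomerase copies.
Rn7sk: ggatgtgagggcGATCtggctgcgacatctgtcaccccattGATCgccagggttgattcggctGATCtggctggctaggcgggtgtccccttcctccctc
Terc: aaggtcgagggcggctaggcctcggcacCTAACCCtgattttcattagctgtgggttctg

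GATC starts at bases 13, 42 and 64 of Rn7sk, and 0.323% of 139316 transcripts of at least 100 bases held it at least 3 times in their first 100 bases. The template motif starts at base 29 of Terc, and 0.162% of the same transcripts held it in their first 60 bases. Both searches were on the sense strand only.

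The libraries held between 45481609 and 49846634 counts. MRL/lpr replicate 3 stood apart: the ribosomal RNA gene CT010467.1 took 6.38% of its counts, beside 0.169% to 0.457% elsewhere, so results that rest on this library are given with and without it. The share of mitochondrial genes was 3.06% to 3.49% in MRL/lpr and 5.84% to 6.38% in MRL/mpj. Counts of Fas were 461, 282 and 298 in MRL/lpr and 426, 432 and 362 in MRL/mpj, which overlap. The counts of Xist, the RNA that silences one X chromosome, ran from 8886 to 11319 in MRL/lpr and from 27 to 38 in MRL/mpj, whereas the methods of the study name female mice for each strain. The labels give no sex for these libraries, so strain and sex cannot be told apart. The 12 microglia markers were all tested and summed to between 26003 and 29638 CPM (counts scaled to a common library size, by the TMM method) in MRL/lpr and between 30636 and 31461 in MRL/mpj, and 4 of them were lower in MRL/lpr. T and NK cell markers were higher in MRL/lpr in 7 of 10 cases, with sums of 19.9 to 23.0 CPM against 4.36 to 5.65. Markers of ependyma and choroid plexus were lower in 6 of 10 cases, with sums of 371 to 384 CPM against 1084 to 1168, and none of these T, NK or choroid plexus markers was at 0 in all libraries. In such bulk samples fewer cells of a type and less RNA per cell cannot be told apart.

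Malat1 and Neat1 were the noncoding RNAs that rose in MRL/lpr, each to more than 2 times its level in MRL/mpj. edgeR's quasi-likelihood test could be applied to 9 of the 11 rows. It called these 2 higher and none lower, at an adjusted p under 0.05, and DESeq2 also called 2 higher and 0 lower. No RNA among them was lower at an unadjusted p under 0.05 (0 of 9). Of all 19554 tested genes, 11.1% were called higher and 9.06% lower. Malat1 and Neat1 also passed the stricter rule of the study, which adds a minimum of 1 on the absolute log2 scale and which 4.67% of the tested genes passed in the upward direction. With only 9 rows, the count of 2 beside these shares is not read as a property of the group. The CPM of the strains did not overlap for 3 of the 9 (Malat1, Neat1 and Snhg1, all higher in MRL/lpr), beside 19.6% of all tested genes.

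**Figure D1:**
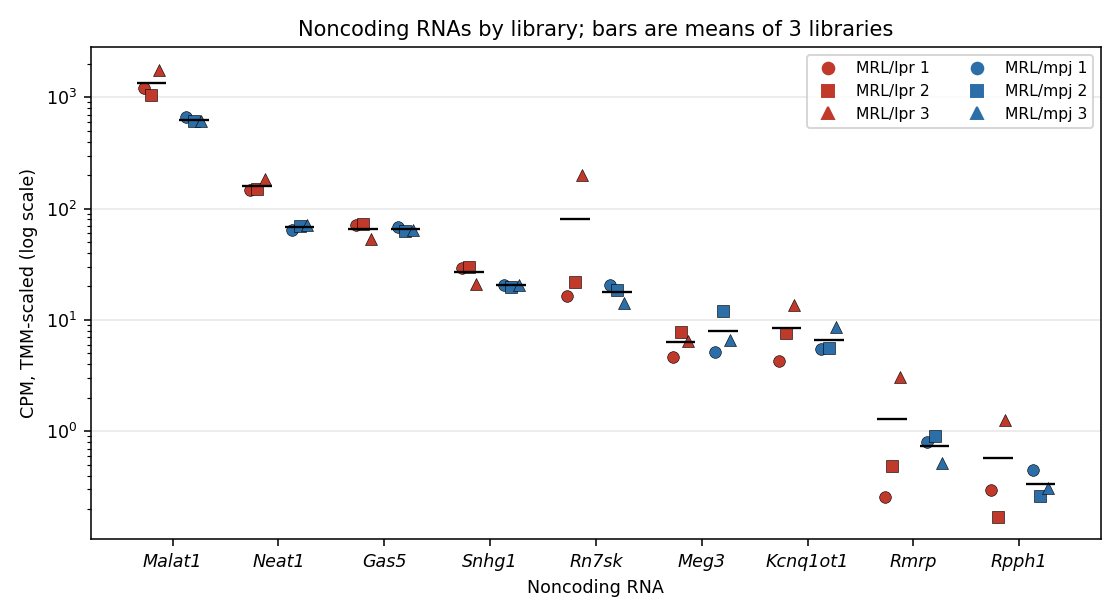
CPM (TMM-scaled, log scale) of the 9 tested noncoding RNAs in each library, with MRL/lpr in red, MRL/mpj in blue, a marker shape for each replicate and a bar at the mean of each strain. Malat1 and Neat1 lie higher in all 3 MRL/lpr libraries than in any MRL/mpj library, and the triangle of MRL/lpr replicate 3 stands far above the others for Rn7sk, Rmrp and Rpph1.

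Malat1 (ENSMUSG00000092341, GRCm38 chr19:5795690-5802672) had the most counts of the group. It held 56609, 49868 and 73969 counts in MRL/lpr replicates 1 to 3 and 34439, 30721 and 31598 in MRL/mpj replicates 1 to 3. All 3 MRL/lpr libraries were above the MRL/mpj libraries, and MRL/lpr replicate 3 was the highest. The means were 1344 ± 375 CPM (SD, n = 3) in MRL/lpr and 631 ± 34.4 CPM (SD, n = 3) in MRL/mpj. The log2 fold change was 1.09 with a standard error of 0.19 (adjusted p = 0.0101, quasi-likelihood test of edgeR, Benjamini-Hochberg adjusted over all tested genes). Without MRL/lpr replicate 3 it was 0.85 (adjusted p = 0.000184), below the fold minimum of the stricter rule.

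Neat1 (ENSMUSG00000092274, chr19:5824708-5845478) lies 22.0 kb from Malat1 on the same strand. Its counts were 6858, 7124 and 7707 in MRL/lpr and 3307, 3507 and 3707 in MRL/mpj. The strains did not overlap, and MRL/lpr replicate 3 was again the highest. The means were 161 ± 20.9 CPM (SD, n = 3) in MRL/lpr and 68.6 ± 3.71 CPM (SD, n = 3) in MRL/mpj. The log2 fold change was 1.23 with a standard error of 0.10 (adjusted p = 3.06e-05, edgeR), and it was 1.12 without MRL/lpr replicate 3. A test against the fold minimum itself (glmTreat at a log2 fold change of 1) called neither RNA, with an adjusted p of 0.136 for Neat1 and 1.0 for Malat1, and only 1 of the 9 had an unadjusted p under 0.05 in it. The short and the long form of Neat1 begin at the same site, and counts per gene do not separate them.

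Within a library, Malat1 had 8.25, 7.0 and 9.60 times as many counts as Neat1 in the MRL/lpr libraries and 10.4, 8.76 and 8.52 times as many in the MRL/mpj libraries. These ratios overlapped, and their log2 means differed by -0.16 (MRL/lpr minus MRL/mpj, exact two-sided permutation test p = 0.4, adjusted p = 0.56 over 7 such ratios). Malat1 made up between 76.3% and 81.6% of the counts of all 11 rows in each library. Together the 11 rows took 0.132% to 0.207% of the counts in MRL/lpr and 0.0828% to 0.0890% in MRL/mpj.

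The 14 genes of the early response to tissue dissociation, such as Fos and Jun, differed between the strains in the same direction as Malat1 and Neat1. All 14 were called higher in MRL/lpr, with a median log2 fold change of 0.92. In unscaled counts within MRL/lpr, replicate 3 had the most of Malat1 and Neat1 and the fewest of each of the 14. It was also the smallest library, with 45481609 counts and a TMM factor of 0.92, beside 0.978 and 0.977 in replicates 1 and 2. For genes with close counts this order therefore need not hold after scaling. Fos had 131769, 131385 and 103398 counts in MRL/lpr replicates 1 to 3, and Jun had 373557, 368449 and 293572. Their summed level was between 49303 and 55767 CPM in MRL/lpr and between 28158 and 29896 CPM in MRL/mpj, and none was at 0. Of the 14 tested genes of replication-dependent histones, 7 were called higher and none lower, with a median log2 fold change of 0.99. Hist1h2ac and Hist2h3c2 went the other way, at -0.28 and -0.48, and were not called. The list summed to 459 to 495 CPM in MRL/lpr and 315 to 334 CPM in MRL/mpj. Hist1h1c alone had means of 341 CPM in MRL/lpr and 253 CPM in MRL/mpj. The part of either list in the difference of Malat1 and Neat1 was not tested, nor was that of the mitochondrial share.

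The proteins that build paraspeckles on Neat1 had a median log2 fold change of 0.02, beside -0.01 over all tested genes. Of 18 tested, 2 were called higher and 1 lower, beside 11.1% and 9.06% of all tested genes. This count is not read as a property of the list. Sfpq, a core paraspeckle protein that binds Neat1, had 356 ± 17.8 CPM (SD, n = 3) in MRL/lpr and 291 ± 6.46 CPM (SD, n = 3) in MRL/mpj (log2 fold change 0.29, adjusted p = 0.00934, edgeR). Nudt21, a subunit of the cleavage factor that favours the short form of Neat1, fell by 0.34 on the log2 scale (adjusted p = 0.028, edgeR). Dazap1, an RNA-binding protein needed for paraspeckles, completed the 3 calls, at 0.29. The count of 3 called proteins ran from 0 to 6 when single libraries were left out, with 0 without MRL/mpj replicate 1 and 6 without MRL/lpr replicate 3.

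**Figure D2:**
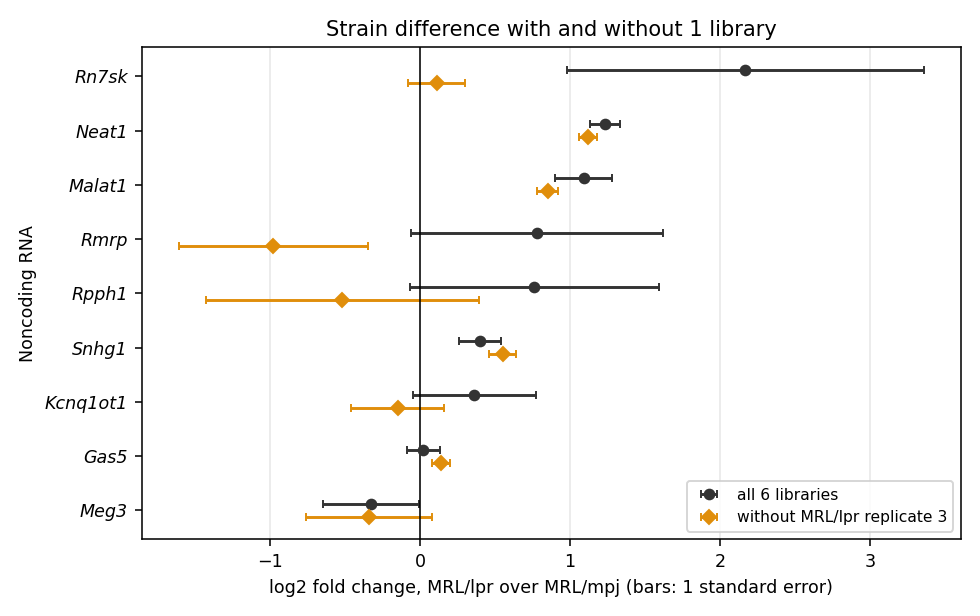
Log2 fold change of MRL/lpr over MRL/mpj for the 9 tested noncoding RNAs, from all 6 libraries (circles) and without MRL/lpr replicate 3 (diamonds), with bars of 1 standard error. Malat1, Neat1 and Snhg1 stay above 0 in both, Rn7sk drops from 2.17 to 0.11, and Rmrp, Rpph1 and Kcnq1ot1 change sign.

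None of the 3 tested RNA polymerase III transcripts was called, and in each of them MRL/lpr replicate 3 was the highest library. Rn7sk (ENSMUSG00000065037, chr9:78175303-78175633) had 764, 1034 and 8434 counts in MRL/lpr and 1053, 926 and 734 in MRL/mpj. The strains overlapped apart from MRL/lpr replicate 3, whose CPM was 9.19 times the highest of the other 5 libraries. MRL/lpr over MRL/mpj gave a log2 fold change of 2.17 with a standard error of 1.19 (adjusted p = 0.312, edgeR) and 0.11 without this library (adjusted p = 0.752).

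Reads of Rn7sk can belong to more than 1 row. The first 241 of its 331 bases are identical to those of Gm24447 (chr15:93234363-93234700), an annotated copy of 338 bases. Gm24447 had 174, 13 and 1562 counts in MRL/lpr and 23, 9 and 19 in MRL/mpj, so the copy was also highest in MRL/lpr replicate 3. The summed counts of both were 938, 1047 and 9996 in MRL/lpr and 1076, 935 and 753 in MRL/mpj, so that MRL/lpr replicate 3 again stood alone. In all, 11 other annotated genes matched Rn7sk at 90% identity or more over at least 100 bases.

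Rmrp (ENSMUSG00000088088, chr4:43492788-43493058) had 12, 23 and 129 counts in MRL/lpr and 41, 45 and 27 in MRL/mpj. MRL/lpr replicates 1 and 2 were the lowest of the 6 libraries and replicate 3 the highest. This gave a log2 fold change of 0.78 with a standard error of 0.84 (adjusted p = 0.591, edgeR), and it turned to -0.98 without MRL/lpr replicate 3 (adjusted p = 0.339). The second Rmrp row (ENSMUSG00000115420) covers the same locus and held 1 count in MRL/mpj replicate 3 and 0 in the other libraries. Ccdc107 overlaps Rmrp on the opposite strand and had 368 to 534 counts. Since the counting is not stated to use strand, reads of the pair cannot be told apart.

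Rpph1 (ENSMUSG00000092837, chr14:50807449-50807767) had 14, 8 and 53 counts in MRL/lpr and 23, 13 and 16 in MRL/mpj. Again MRL/lpr replicate 3 was above all others while replicates 1 and 2 lay among or below the MRL/mpj libraries. The log2 fold change was 0.76 with a standard error of 0.83 (adjusted p = 0.593, edgeR), and it was -0.52 without MRL/lpr replicate 3. Ccnb1ip1, which overlaps Rpph1 on the same strand, had 0 to 23 counts.

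The ratio of Rn7sk to Rmrp counts was 63.7, 45 and 65.4 in the MRL/lpr libraries and 25.7, 20.6 and 27.2 in the MRL/mpj libraries. This ratio did not overlap between the strains and was not out of line in MRL/lpr replicate 3. Its log2 means differed by 1.23 (exact two-sided permutation test p = 0.1, the smallest that 3 libraries against 3 allow, adjusted p = 0.175 over the 7 ratios). The Rmrp counts of 12 to 129 set the precision of this ratio.

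The excess of MRL/lpr replicate 3 was shared by some other small structured RNAs. Of the 14 tested rows of that kind outside the group, 10 had their highest CPM in this library, as had 21.1% of all tested genes. The 10 are not all separate RNAs, since they include Rn7s1 with Rn7s2 and copies of the U3 snoRNA. Rnu1a1 and Scarna6 were highest only after scaling, with 85 and 37 counts against at most 87 and 39. Rn7s1 and Rn7s2, identical copies over 300 bases of 7SL RNA, the RNA of the signal recognition particle, had 3056 and 3028 counts in it and at most 709 in any other library. Snord17 had 332 counts against at most 109, and Scarna2 had 180 against at most 43. CT010467.1 (chr17:39846353-39848827) had 2902393 counts against at most 225984. edgeR called 0 of the 14, with 1 at an unadjusted p under 0.05, and DESeq2 called 2. In MRL/lpr replicate 3, 151 tested genes (0.772%) had at least 2 times the CPM of the highest other library, among them Rn7sk, Rmrp and Rpph1. The other libraries had between 61 and 66 such genes each, with none of these noncoding RNAs among them.

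**Figure D3:**
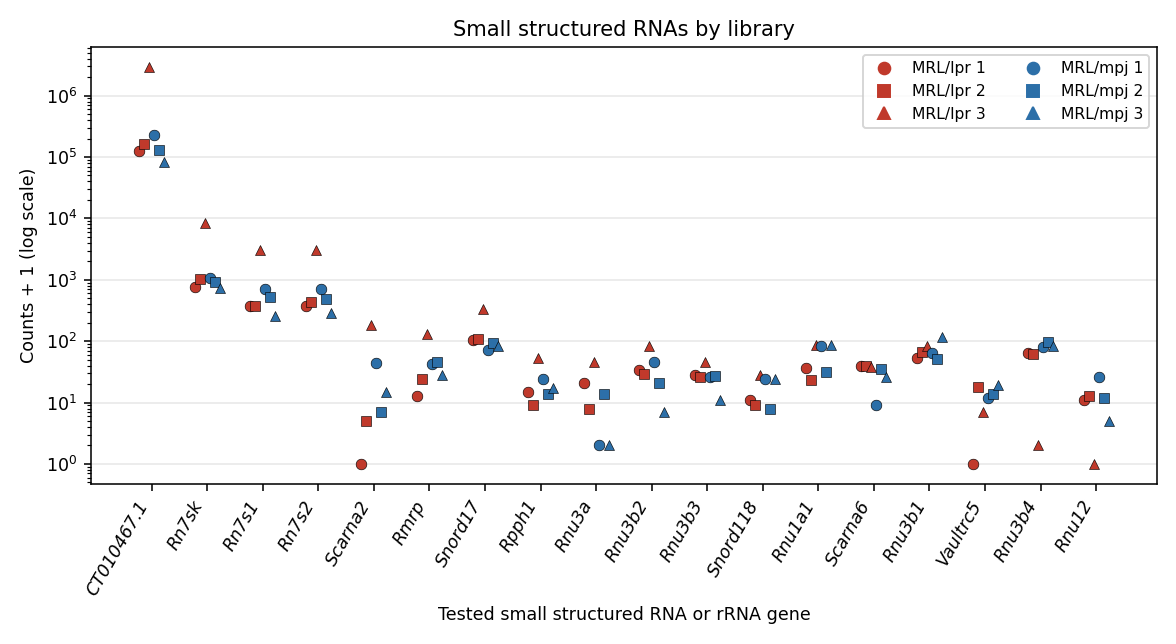
Counts plus 1 (log scale) in each library for the tested small structured RNAs and the ribosomal RNA gene CT010467.1, ordered by the excess of MRL/lpr replicate 3 over the highest other library. The red triangle of that library stands above the other 5 for the RNAs on the left and among or below them for those on the right, such as Rnu3b4 and Rnu12.

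Some of these rows carry few reads and depend on how near-identical copies were assigned. Rnu3b4, a gene of the U3 snoRNA family, had 1 count in MRL/lpr replicate 3 in one row, where the other libraries had 62 to 97, and 148 in its other row, where they had at most 9. U3 copies are therefore given as uncertain.

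Protein partners of the polymerase III transcripts were measured with more counts. Of the 9 proteins of the 7SK particle and P-TEFb, 2 were called higher and none lower (median log2 fold change -0.02). Of all tested genes, 11.1% were called higher and 9.06% lower, and this count is not read as a property of the list. Hexim1, which inhibits P-TEFb when bound to 7SK RNA, reached 90.5 ± 9.66 CPM (SD, n = 3) in MRL/lpr and 72.7 ± 3.01 CPM (SD, n = 3) in MRL/mpj (log2 fold change 0.32, adjusted p = 0.0383, edgeR). The 7SK-binding proteins Larp7 and Mepce had log2 fold changes of -0.10 and -0.19 and were not called. Both calls were lost without MRL/lpr replicate 1 or without any single MRL/mpj library, when 0 of the 9 were called.

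Of the 11 proteins of RNase P and RNase MRP, 2 were called lower and none higher (median log2 fold change -0.19). The shares over all tested genes were 9.06% lower and 11.1% higher, and no count in this paragraph is read as a property of its list. Rpp40 had 2.12 ± 0.265 CPM (SD, n = 3) in MRL/lpr and 3.87 ± 0.434 CPM (SD, n = 3) in MRL/mpj, a log2 fold change of -0.86 (adjusted p = 0.0285, edgeR). Rpp14 fell by 0.54 on the log2 scale (adjusted p = 0.0242, edgeR). No protein of this list was called without MRL/lpr replicate 1 or without MRL/mpj replicate 2. The RNA polymerase III machinery held 25 tested genes, of which Gtf3c1, a subunit of TFIIIC, was called higher at 0.38 and Polr3e, a subunit of the polymerase, lower at -0.31. These 2 calls became 1 without MRL/lpr replicate 1 or without any single MRL/mpj library, and 4 without MRL/lpr replicate 3.

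Terc (ENSMUSG00000064796, chr3:96414437-96414859) had 8 counts in MRL/lpr replicate 2 and 0 in the other 5 libraries, and it did not reach the minimum for a test. Tert, the protein subunit that copies the Terc template, had 59, 40 and 59 counts in MRL/lpr and 53, 39 and 48 in MRL/mpj, which overlap (log2 fold change 0.36, adjusted p = 0.586, edgeR). edgeR called 0 of the 11 tested proteins of telomerase and its H/ACA relatives, with 0 at an unadjusted p under 0.05, and DESeq2 called 0. The most abundant of them were Zcchc8, a subunit of an RNA decay adaptor, at 62.3 ± 7.56 CPM (SD, n = 3) in MRL/lpr and 61.6 ± 8.69 CPM (SD, n = 3) in MRL/mpj, and Parn, a nuclease that trims Terc, at 32.9 ± 1.37 and 35.8 ± 0.741 CPM (SD, n = 3). A difference in Terc itself was not detectable at this depth.

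Gas5 and Snhg1 are both snoRNA host genes, and neither was called with all 6 libraries. Gas5 (ENSMUSG00000053332, chr1:161034422-161038539) had 3324, 3427 and 2253 counts in MRL/lpr and 3485, 3175 and 3331 in MRL/mpj. MRL/lpr replicate 3 was the lowest library. The others overlapped in unscaled counts but not as CPM. MRL/lpr replicates 1 and 2 were at 70.7 and 72.8 CPM and the MRL/mpj libraries at 63.5 to 67.8 CPM. The means were 65.8 ± 10.4 CPM (SD, n = 3) in MRL/lpr and 65.1 ± 2.35 CPM (SD, n = 3) in MRL/mpj, with a log2 fold change of 0.02 and a standard error of 0.11 (adjusted p = 0.95, edgeR). Its sign depended on the scaling, with -0.10 when only the library sizes were used. Without MRL/lpr replicate 3 the log2 fold change was 0.14 and was not called (adjusted p = 0.166, edgeR).

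Snhg1 (ENSMUSG00000108414, chr19:8723475-8726443) had 1389, 1410 and 887 counts in MRL/lpr and 1063, 993 and 1068 in MRL/mpj. As CPM the MRL/lpr libraries were at 29.5, 30.0 and 21.2 and the MRL/mpj libraries at 20.7, 19.9 and 20.5, so that the strains did not overlap, by a narrow margin in MRL/lpr replicate 3, whose unscaled count was the lowest of all. Between the strains the log2 fold change was 0.40 with a standard error of 0.14 and missed the threshold (adjusted p = 0.0703, edgeR). Without MRL/lpr replicate 3 it was 0.55 and passed (adjusted p = 0.00271, edgeR). With library sizes only it was 0.29 (adjusted p = 0.223, edgeR). The lack of overlap depended on the scaling. In the deposited FPKM (fragments per length of transcript and depth of library), MRL/lpr replicate 3 was at 5.85 and the MRL/mpj libraries at 6.17 to 6.43.

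The ratio of Snhg1 to Gas5 within a library needs no scaling between libraries. It was 0.418, 0.411 and 0.394 in MRL/lpr and 0.305, 0.313 and 0.321 in MRL/mpj, so MRL/lpr replicate 3 lay close to its own strain. The log2 means were -1.29 ± 0.045 (SD, n = 3) and -1.68 ± 0.036 (SD, n = 3), a difference of 0.38 (exact two-sided permutation test p = 0.1, the smallest possible, adjusted p = 0.175 over the 7 ratios).

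The snoRNAs inside the introns of both genes could hardly be read from these counts. Of 10 annotated snoRNA rows within Gas5, 6 had exactly 1 count in each of the 6 libraries, as had 6 of 8 within Snhg1. Such a row of ones was found for 172 genes of the table, 105 of them annotated as miRNAs and 47 as snoRNAs. The nested row with the most counts was Gm22357 in Gas5, with 285, 360 and 177 counts in MRL/lpr and 230, 280 and 212 in MRL/mpj, which overlap. Zbtb37, a protein-coding gene on the opposite strand of the Gas5 locus, had 1448 to 2483 counts.

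Among 15 other tested snoRNA host genes, 1 was called higher and none lower (median log2 fold change -0.02). Over all tested genes the shares were 11.1% higher and 9.06% lower, and no count in this paragraph is read as a property of its list. Snhg15 had 1230, 1339 and 1146 counts in MRL/lpr and 964, 1037 and 925 in MRL/mpj (log2 fold change 0.52, adjusted p = 0.0057, edgeR). Its MRL/lpr libraries were all above its MRL/mpj libraries. Of the 11 proteins that assemble box C/D snoRNAs, the kind held by Gas5 and Snhg1, Znhit3 was called lower at -0.59 and none was called higher. That call was lost with any single library left out, and DESeq2 called 0 of the 11. Of 10 tested factors of nonsense-mediated decay, 2 were called higher and none lower, among them the kinase Smg1 at 0.29. Both calls were lost without MRL/lpr replicate 1 or without any single MRL/mpj library.

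Kcnq1ot1 (ENSMUSG00000101609, chr7:143203458-143296549) starts within Kcnq1 on the opposite strand and silences neighbouring genes on the paternal chromosome. It had 200, 357 and 564 counts in MRL/lpr and 282, 280 and 451 in MRL/mpj. MRL/lpr replicate 1 was the lowest library and MRL/lpr replicate 3 the highest, so the MRL/mpj values lay between them. The log2 fold change was 0.36 with a standard error of 0.41 (adjusted p = 0.62, edgeR), and it was -0.15 without MRL/lpr replicate 3.

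Kcnq1 itself had 172, 135 and 100 counts in MRL/lpr and 170, 193 and 175 in MRL/mpj, and its log2 fold change of -0.24 was not called. Without a statement on strand, reads of Kcnq1 introns and of Kcnq1ot1 cannot be told apart. Of 12 tested genes of the imprinted domain, 1 was called higher and 1 lower, beside 11.1% and 9.06% of all tested genes. Tspan32, a tetraspanin of blood cells, had 48, 41 and 11 counts in MRL/lpr and 255, 319 and 169 in MRL/mpj (log2 fold change -2.75, adjusted p = 0.00296, edgeR). Trpm5, a cation channel, had 104, 143 and 92 counts in MRL/lpr and 60, 60 and 40 in MRL/mpj (log2 fold change 1.25, adjusted p = 0.0233, edgeR). Without MRL/lpr replicate 2, MRL/mpj replicate 1 or MRL/mpj replicate 3 only 1 gene of the domain was called, and without MRL/lpr replicate 3 there were 4. Cdkn1c, a cell cycle inhibitor silenced by Kcnq1ot1 on the paternal chromosome, had a log2 fold change of 0.25 and was not called.

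Meg3 (ENSMUSG00000021268, chr12:109541001-109571726) is expressed from the maternal chromosome and is abundant in neurons. It had 220, 368 and 272 counts in MRL/lpr and 265, 602 and 345 in MRL/mpj. MRL/mpj replicate 2 was the highest library and the others overlapped. edgeR gave a log2 fold change of -0.33 with a standard error of 0.32 (adjusted p = 0.558, edgeR), and it was 0.10 without MRL/mpj replicate 2.

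Rian, the next maternally expressed RNA of the Meg3 locus, had 122, 109 and 85 counts in MRL/lpr and 192, 182 and 124 in MRL/mpj. Scaled to library size the strains overlapped, and the log2 fold change of -0.49 was not called (adjusted p = 0.253, edgeR). Begain was the only other tested gene of this domain. edgeR called 0 of these 2, with 0 at an unadjusted p under 0.05, and DESeq2 called 0. Neuronal markers had sums of 41.1 to 49.8 CPM in MRL/lpr and 69.3 to 73.9 CPM in MRL/mpj. Of these 12 markers, 2 were called lower, the median log2 fold change was -1.09 and none was at 0 in all libraries. Their part in the values of Meg3 and Rian was not tested.

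**Figure D4:**
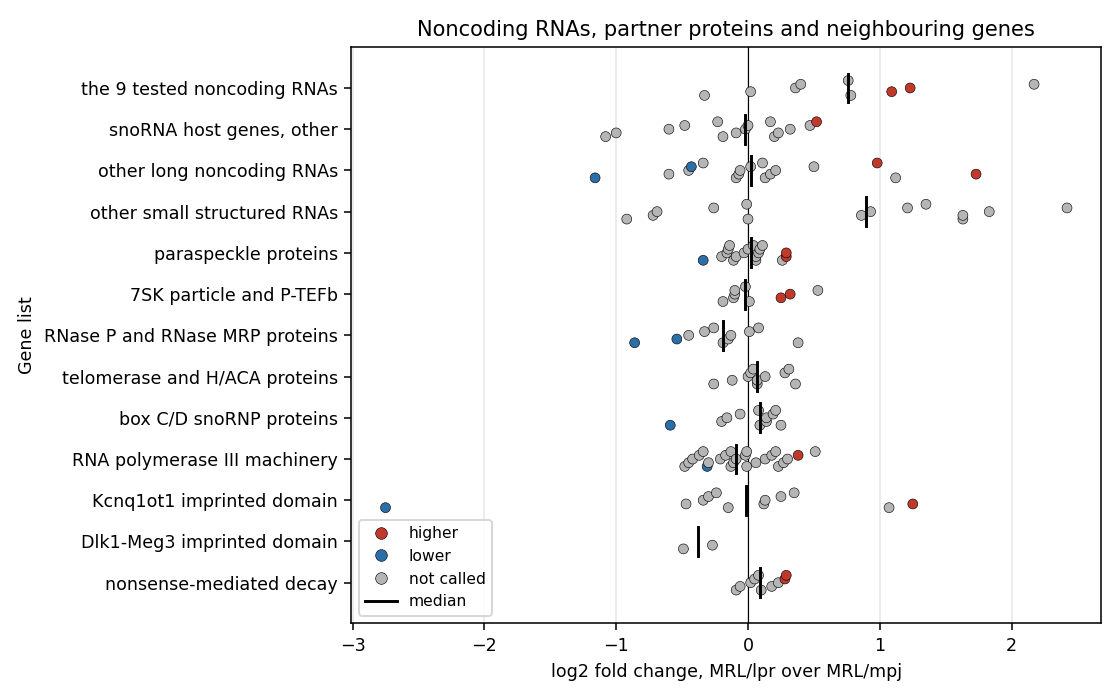
Log2 fold change of MRL/lpr over MRL/mpj for each tested gene of the noncoding RNAs and of 12 lists of their relatives, partner proteins and neighbouring genes, 1 dot per gene, red where called higher, blue where called lower and grey where not called, with a black line at the median. Medians of the protein lists lie between -0.19 and 0.09, and the lists of small structured RNAs and of the noncoding RNAs themselves have medians of 0.90 and 0.76. Both of the latter lists hold RNAs that were highest in MRL/lpr replicate 3. The median of 0.76 is the value of Rpph1, which turned to -0.52 without this library.

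Other long noncoding RNAs moved in both directions. Of 17 tested, 2 were called higher and 2 lower, beside 11.1% and 9.06% of all tested genes. The median log2 fold change was 0.02. Lncpint had 159, 199 and 345 counts in MRL/lpr and 96, 82 and 66 in MRL/mpj (log2 fold change 1.73, adjusted p = 0.00807, edgeR), with no overlap and the highest value in MRL/lpr replicate 3. Gm14005, to which the gene name table matched Morrbid, a noncoding RNA that controls the survival of myeloid cells, fell from 5.84 ± 0.488 CPM (SD, n = 3) in MRL/mpj to 2.62 ± 0.412 CPM (SD, n = 3) in MRL/lpr (log2 fold change -1.16, adjusted p = 0.00418, edgeR). The nuclear RNA Tug1 and the cytoplasmic RNA 2900097C17Rik (Norad) had log2 fold changes of 0.13 and 0.17 and were not called.

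Levels of different RNAs were set against each other per length, as FPKM (fragments per length of transcript and depth of library) as deposited by the authors. In MRL/mpj the order was Malat1 at 84.0 ± 4.53, Rn7sk at 49.7 ± 9.16, Gas5 at 16.1 ± 0.567, Snhg1 at 6.33 ± 0.138 and Neat1 at 3.07 ± 0.166 FPKM (SD, n = 3). Below these came Rmrp at 2.49 ± 0.663, Rpph1 at 0.960 ± 0.282, Meg3 at 0.407 ± 0.189 and Kcnq1ot1 at 0.0667 ± 0.0208 FPKM (SD, n = 3), and Terc was listed at 0. Libraries of neighbours in this order overlapped only for Neat1 and Rmrp. The annotated lengths behind these values are 20771 bases for Neat1 and 93092 bases for Kcnq1ot1, and the short form of Neat1 would fill only part of its length.

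In MRL/lpr the per-length levels of Malat1 were 150.3, 132 and 209 FPKM and those of Rn7sk 42.8, 57.8 and 503 FPKM, so the libraries of these 2 overlapped through MRL/lpr replicate 3. Neat1, at 6.12 to 7.32 FPKM, overlapped Snhg1, at 5.85 to 8.73 FPKM, which in MRL/mpj was above it in each library. Rmrp and Rpph1 overlapped each other, at 0.780 to 9.39 and 0.430 to 3.23 FPKM. Terc was listed at 0.330 FPKM in replicate 2 and at 0 in the others.

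The genes whose pattern over the 6 libraries was most like that of an RNA were found by the root mean square difference of their log2 deviations from their own means, among 13136 other tested genes with a mean of at least 100 counts. For Malat1 these were Mcm5 at 0.102, Tspo at 0.130 and Gm47079 at 0.132, and Neat1 came as number 31 at 0.179. Those closest to Neat1 were Capn1 at 0.0512, Tln2 at 0.0561 and Gcn1l1 at 0.0728. Gas5 was closest to Larp4, Zcchc9 and Anp32b, at 0.0247 to 0.0297, and Meg3 to Ccdc166, Paip2 and Pofut2, at 0.152 to 0.178. The median over the genes compared was 0.613 for Malat1, 0.656 for Neat1, 0.260 for Gas5 and 0.489 for Meg3. All of these are descriptions over 6 libraries that share 2 strains.

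Rows nested within the long RNAs can take reads from them. Within Neat1, Gm27505 had 456, 451 and 2 counts in MRL/lpr and 237, 2 and 208 in MRL/mpj, jumps that do not follow the strain. They are small beside the 3307 to 7707 counts of Neat1 in each library. Within Malat1 and Meg3, Gm27694 and Gm27300 had exactly 1 count in each library.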

How the data were processed

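Whole-number counts per gene and FPKM values per library were used, as the authors deposited them, for the 6 libraries of paired reads. The submitters' processing notes name cutadapt 1.9.3, HISAT2 2.0.4, Cuffdiff 2.2.1, Cufflinks and the build GRCm38; the counting tool and the annotation used for it are not given in the sources used here. Genes with 4 or 8 counts (1138 to 1288 and 657 to 728 per library) outnumber those with 3 or 5 (320 to 415 and 211 to 261), so 1 read pair may be worth several counts. GENCODE M21 (GRCm38) supplied symbols, coordinates and sequences and held 55141 of the 55401 identifiers.

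Counts were filtered with filterByExpr (minimum count 10, minimum total 15), scaled by TMM and tested with edgeR 4.0.16 in R 4.3.3 (robust quasi-likelihood test, Benjamini-Hochberg over 19554 genes, call at 0.05). FPKM was tested as log2(FPKM + 0.1) or log2(FPKM + 1) with limma 3.58.1, as an alternative. DESeq2 1.42.0, other scalings and filters, a replicate block and each library left out were further alternatives. Near copies were sought with BLAST 2.17.0 and ratios tested by exact permutation with scipy 1.17.1; the 7 ratios were chosen after the counts were seen. The edgeR step was tested on simulated data. The noncoding RNAs and the lists were chosen with earlier results of these data known. Of each list the 2 largest called changes are named, or the 2 most abundant genes where none was called, with partners of the noncoding RNAs, genes overlapping them and the 3 genes most alike to Malat1, Neat1, Gas5 and Meg3. CT010467.1, Snord17, Scarna2, Scarna6, Rnu1a1, Rnu3b4, Rnu12, Dazap1, Tug1, 2900097C17Rik, Hist1h1c, Hist1h2ac and Hist2h3c2 were chosen after their values were seen. Some genes that this rule covers are not reported here.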

Additional observations from a re-analysis of the deposited data

How the results depend on the processing

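Malat1 and Neat1 were called in each of the 18 alternatives in which their fold change was refitted, with log2 fold changes of 0.85 to 1.24 and 0.90 to 1.29 and adjusted p-values of at most 0.039 and 0.00116. The glmTreat test against a log2 fold change of 1 called 0 of these RNAs and 616 of all genes, where 3950 genes were called without a fold rule and 1630 with it. limma on log2(FPKM + 1), which shrinks the changes of low genes, gave 618 by the stricter rule. With single libraries left out, 2 to 3 of the noncoding RNAs and 2803 to 4334 of all genes were called, and 1398 to 1650 by the stricter rule. Snhg1 also passed when counts were divided by 4 (0.41, adjusted p = 0.0483).

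Signs turned for Rmrp with the replicate block (-0.03), without MRL/lpr replicate 3 (-0.98) and on log2(FPKM + 0.1) (-0.08), and without MRL/lpr replicate 3 for Rpph1 (-0.52) and Kcnq1ot1 (-0.15). They turned for Meg3 without MRL/mpj replicate 2 (0.10). Gas5, whose log2 fold change stood near 0, turned in 7 alternatives: -0.0022 with upper quartile scaling, -0.10 with library sizes only, -0.12 on log2(FPKM + 0.1), -0.11 on log2(FPKM + 1), and -0.06 to 0.14 with single libraries left out. With single libraries left out the values ran up to 1.27 for Rmrp, 1.2 for Rpph1 and 0.68 for Kcnq1ot1, and down to -0.56 for Meg3. None of these was called in any alternative, and the cause was not tested. DESeq2 gave no adjusted p for Rn7sk, counts divided by 4 left no test for Rmrp and Rpph1, and Kcnq1ot1 lay under the FPKM filter.

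Same-numbered libraries of the strains had deviations with correlations of -0.0409, -0.0202 and -0.0325, and differently numbered ones had 0.00246 to 0.0328. All of these lie near 0, and they cannot show whether libraries of equal number were handled together. With the replicate block 3065 genes were called, 1426 by the stricter rule and 2 of the noncoding RNAs. Of 140 recomputed counts of called genes on 14 lists, 96 stayed within 1.5 times. Rows with few counts, such as Rpph1, Rmrp and Terc, limit what depth can show.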
